A study of Mus musculus with 36 samples.

Results

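The myelinated optic nerve (MON) was examined 3 days after the start of bead glaucoma in C57BL/6 mice, against the MON of naive mice. The groups were taken from the sample labels, which put 2 of the 36 bulk RNA-seq libraries of the series in the 3-day glaucoma group and 2 in the naive MON group. Each library was a pool of RNA from 2 mice of one sex, so that n = 2 pools per group and the sexes are not replicated within a group. The glaucoma mice had received microbeads in the anterior chamber of one eye, which raises intraocular pressure (IOP), and naive mice had no procedure in either eye and gave tissue on the same collection days. All mice were wild type and 2 to 4 months old. The MON was the first fully myelinated stretch behind the transition zone, and the unmyelinated nerve head (UON) and retina of the same mice were collected too. Further comparisons used the MON 2 weeks and 6 weeks after bead injection and the UON of naive and 3-day glaucoma mice. They also used the MON 3 days after unilateral crush of the optic nerve with forceps. Each of these groups had 2 pools. The labels and methods name no IOP for single pools, and the extent of axon injury in a pool was not measured in these libraries. For the mice sampled at 3 days, the study's supplement gives the mean IOP difference between bead and control eyes. It was large the day after injection and small on day 3, with a wide spread between mice. The study's text describes a significant mean IOP elevation at 3 days.

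As background, the MON holds axons of retinal ganglion cells, the oligodendrocytes that wrap them in myelin, astrocytes, oligodendrocyte precursors, microglia, vessels and a sheath of meningeal fibroblasts. Microglia live in the tissue from early development on and keep a set of homeostatic genes, whereas monocytes come from blood through the chemokine receptor CCR2 and become macrophages. Both cell types take up debris through Fc, complement and scavenger receptors and break it down with lysosomal cathepsins. Glia and myeloid cells can divide after nerve injury, and injured nerve lays down matrix such as collagens and fibronectin, which cells hold through integrins.

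Gene levels are given as CPM, the authors' estimated counts per gene scaled to a common library size with edgeR's TMM factors and not to gene length, so levels of different genes are not compared. In each list of 4 values the naive female and male pools come first, then the glaucoma female and male pools. The glaucoma pools held 53.47 M counts (female) and 76.73 M (male), and the naive pools 78.05 M (female) and 17.76 M (male), so low genes were measured least precisely in the naive male pool. Sex-linked genes (Xist, Ddx3y, Eif2s3y) fitted the sex given for each of the 8 MON libraries of the glaucoma course. Myelin and oligodendrocyte genes summed to 118170 to 158250 CPM in the 4 pools and photoreceptor genes to 46.7 to 196 CPM, with no group apart in either list. Counts of mt-Nd1, mt-Co1 and mt-Atp6 were 0 in some pools and very high in others of the same group, so these genes were not read as levels.

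The central comparison asked which genes differed between the 3-day glaucoma MON and naive MON. By edgeR's quasi-likelihood test over 22960 genes, 0 genes (0%) passed an adjusted p under 0.05 with a log2 fold change beyond 1, and the smallest adjusted p was 0.1174. At an unadjusted p under 0.05 edgeR had 1854 genes, 1121 higher (4.88%) and 733 lower (3.19%), and limma-voom also called 0. DESeq2 with the same terms, which was the study's tool, called 443 of 19299 genes (2.3%), 341 of them higher (1.77%) and 102 lower (0.529%). The edgeR fit had 3 residual degrees of freedom and a biological coefficient of variation of 0.545. Below, a gene is said to have risen or fallen only where DESeq2 called it, and its edgeR log2 fold change with standard error (SE) and adjusted p stand beside it. The SE was derived as the size of the log2 fold change divided by the square root of the quasi-likelihood F statistic. Over all genes tested the median edgeR log2 fold change was -0.02, and 4012 genes (17.5%) had both glaucoma pools above both naive pools while 4295 (18.7%) had both below.

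Of the 341 genes called higher, 333 had both glaucoma pools above both naive pools and 335 had an unadjusted edgeR p under 0.05. The calls came from the same pools, so these counts describe the called genes and are no separate support. Of the 102 called lower, 89 had both glaucoma pools below both naive pools, 13 had counts in only 1 of the 4 libraries, and 23 had 0 counts in both glaucoma pools. The calls leaned on single pools: DESeq2 kept 96 of the 341 higher calls without the female glaucoma pool, 206 without the male glaucoma pool, 140 without the naive female pool and 200 without the naive male pool. The balance of directions also turned on a pool: without the female glaucoma pool DESeq2 called 200 genes higher and 244 lower, whereas leaving out each of the other pools in turn gave more higher than lower calls. Of the 102 lower calls it kept 32 without the female glaucoma pool, 27 without the male glaucoma pool, 40 without the naive female pool and 21 without the naive male pool. The female glaucoma pool was the higher of the glaucoma pools for 284 of the 341 genes. Since pool and sex are one here, a sex difference and a difference in injury between the pools cannot be told apart.

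**Figure D1:**
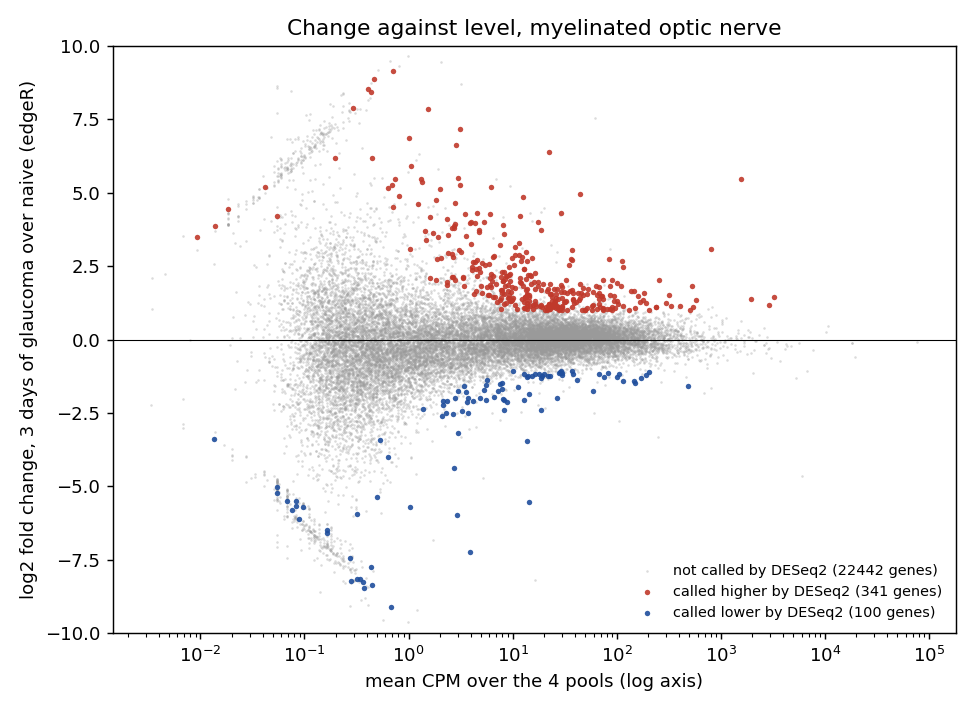
edgeR log2 fold change of 3 days of glaucoma over naive MON (vertical axis) against the mean CPM over the 4 pools (log axis) for the 22960 genes tested, with the 341 genes called higher and the 100 tested genes called lower by DESeq2 in colour. Calls among well-expressed genes lie above the line far more often than below it, and part of the lower calls sit at the far left, where few counts stand behind a gene.

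Genes of border and infiltrating macrophages and monocytes were higher 3 days into glaucoma. Of the 16 genes listed 15 passed the count filter, 9 of these had both glaucoma pools above both naive pools and none had both below. Their summed level was 153 CPM and 202 CPM in the naive pools and 568 CPM and 518 CPM in the glaucoma pools, so the groups did not overlap. Fn1, fibronectin, is also on the matricellular list and made up most of the sum in both glaucoma pools. Most of the difference of the sums from naive was Fn1 too. The median edgeR log2 fold change of the list was 2.03, and DESeq2 called 4 of the genes higher (F13a1, Ms4a7, Ccr2 and Fn1) and 0 lower. In a bulk sample more cells of a type and more RNA per cell cannot be told apart. Without the female glaucoma pool DESeq2 called 0 of these genes, and without the male glaucoma pool 2.

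Ccr2 (chromosome 9, 124101950 to 124113557 on GRCm38), the receptor that draws monocytes out of blood, had 0.391 and 0.275 CPM in the naive pools and 6.67 and 3.81 CPM in the glaucoma pools (edgeR log2 fold change 3.93, SE 0.69, adjusted p = 0.354, and DESeq2 adjusted p = 1.53e-05). Ms4a7, a membrane protein of macrophages, had 0.634 and 0 CPM in the naive pools and 18.8 and 5.32 CPM in the glaucoma pools (edgeR log2 fold change 5.21, SE 1.11, adjusted p = 0.357, and DESeq2 adjusted p = 3.81e-06). F13a1, a transglutaminase of monocytes and tissue macrophages, had 3.33 and 2.03 CPM in the naive pools and 38.4 and 9.66 CPM in the glaucoma pools (edgeR log2 fold change 2.99, SE 0.58, adjusted p = 0.354, and DESeq2 adjusted p = 4.04e-05). In each of these genes both glaucoma pools stood well above both naive pools, and the female pool was the higher. Lyz2, the lysozyme of myeloid cells, went from 109 and 154 CPM in the naive pools to 2524 and 440.5 CPM in the glaucoma pools (edgeR log2 fold change 3.09, SE 0.66, adjusted p = 0.357, and DESeq2 adjusted p = 6.45e-06). Msr1, a scavenger receptor of macrophages, had 0.297 and 0.495 CPM in the naive pools and 85.3 and 3.71 CPM in the glaucoma pools (edgeR log2 fold change 6.39, SE 1.41, adjusted p = 0.357, and DESeq2 adjusted p = 0.00144). Both of the last named were far higher in the female than in the male glaucoma pool. The macrophage marker Mrc1, with 1.17 and 0.385 CPM in the naive pools and 2.59 and 4.07 CPM in the glaucoma pools, was higher in both glaucoma pools without a call (edgeR log2 fold change 1.96, SE 0.82, adjusted p = 0.606, and DESeq2 adjusted p = 0.231). Neutrophil genes were scarce: the list summed to 19.7 to 21.6 CPM in naive and 39.5 to 49.7 CPM in glaucoma pools, Ly6g and Elane had 0 counts in all 4 pools, and 1 of the 9 tested genes, Mmp9, was called higher. Of 11 tested lymphocyte genes 0 were called, with sums of 20.9 to 52.4 CPM that overlapped between groups.

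Chemokines and their receptors had 13 of 25 tested genes with both glaucoma pools above both naive pools, and DESeq2 called 7 higher and 0 lower (Ccl2, Ccl4, Ccl6, Ccl7, Cxcl16, Ccr1 and Ccr2). The median log2 fold change was 0.98, and the summed level went from 228 CPM and 237 CPM to 631 CPM and 450 CPM. Ccl7, a ligand of CCR2, had 0.876 and 0.879 CPM in the naive pools and 23.8 and 7.14 CPM in the glaucoma pools (edgeR log2 fold change 3.91, SE 0.55, adjusted p = 0.27, and DESeq2 adjusted p = 9.86e-10). Ccl2, the main ligand of CCR2, had 0.647 and 1.48 CPM in the naive pools and 22.4 and 5.61 CPM in the glaucoma pools (edgeR log2 fold change 3.23, SE 0.86, adjusted p = 0.437, and DESeq2 adjusted p = 0.00219). Both ligands and their receptor were higher in both glaucoma pools than in both naive pools. Ccr1, a receptor of inflammatory chemokines on myeloid cells, had 2.02 and 2.31 CPM in the naive pools and 29.3 and 8.17 CPM in the glaucoma pools (edgeR log2 fold change 3.17, SE 0.83, adjusted p = 0.426, and DESeq2 adjusted p = 0.00176). Cxcl16, a membrane-bound chemokine, was the exception in that the male glaucoma pool was the higher, with 19.6 and 22.8 CPM in the naive pools and 46.4 and 63.5 CPM in the glaucoma pools (edgeR log2 fold change 1.38, SE 0.33, adjusted p = 0.386, and DESeq2 adjusted p = 0.0107). Without the female glaucoma pool 4 of the list were called higher, and without the male glaucoma pool 7.

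**Figure D2:**
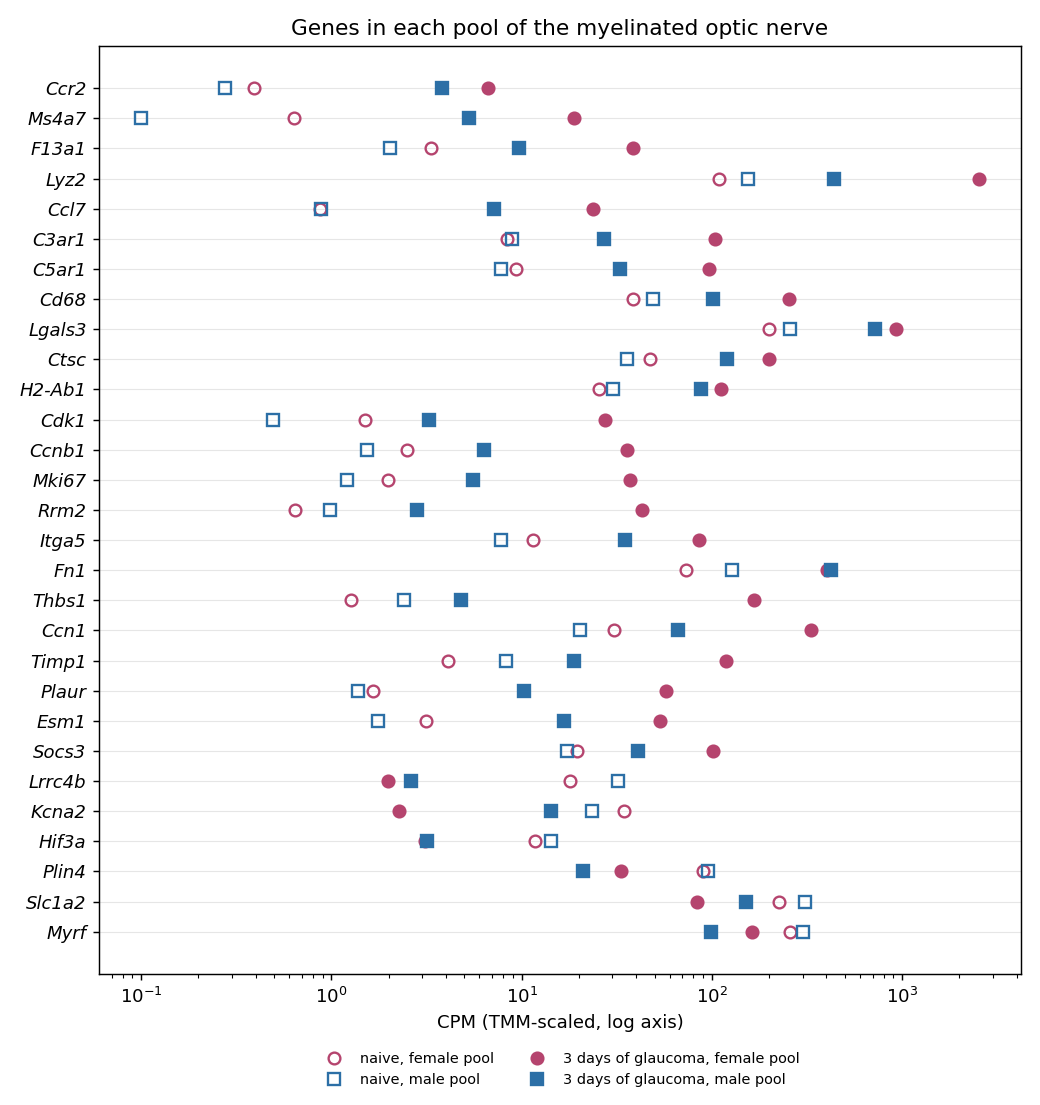
CPM (log axis) of 29 genes in the female (circles) and male (squares) pools of naive (open) and 3-day glaucoma (filled) MON, 1 point per pool, with pools below 0.1 CPM drawn at 0.1. The filled points of genes called higher lie to the right of both open points, with the female pool mostly farthest right, and those of the last 6 genes lie to the left.

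Receptors that myeloid cells use to sense and engulf debris were higher as well. Of 18 tested Fc receptor and myeloid surface genes, 15 had both glaucoma pools above both naive pools, DESeq2 called 8 higher and 0 lower, and the median log2 fold change was 1.37. The summed level was 368 CPM and 376 CPM in naive pools, 1180 CPM in the female and 654 CPM in the male glaucoma pool. Itgam, the alpha chain of complement receptor 3, had 47.7 and 20.4 CPM in the naive pools and 130.3 and 63.2 CPM in the glaucoma pools (edgeR log2 fold change 1.52, SE 0.33, adjusted p = 0.357, and DESeq2 adjusted p = 0.00208). Its partner Itgb2 had 40.8 and 30.3 CPM in the naive pools and 149 and 64.8 CPM in the glaucoma pools (edgeR log2 fold change 1.5, SE 0.29, adjusted p = 0.354, and DESeq2 adjusted p = 0.000681). Both chains of this receptor were thus higher in each glaucoma pool than in either naive pool. Cd14, the co-receptor for bacterial lipopolysaccharide and debris, had 20.01 and 18.2 CPM in the naive pools and 52.7 and 61.1 CPM in the glaucoma pools (edgeR log2 fold change 1.6, SE 0.31, adjusted p = 0.354, and DESeq2 adjusted p = 0.000683). Fcgr3, a low-affinity IgG receptor, had 56.3 and 59.5 CPM in the naive pools and 117 and 132 CPM in the glaucoma pools (edgeR log2 fold change 1.11, SE 0.25, adjusted p = 0.371, and DESeq2 adjusted p = 0.00876). For these last genes the male glaucoma pool was at least as high as the female pool. Without the female glaucoma pool 3 genes of the list were called, and without the male pool 8.

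Complement receptors rose by DESeq2, and the complement components named here did not pass. C3ar1, the receptor for the C3a fragment, had 8.35 and 8.9 CPM in the naive pools and 103 and 27.2 CPM in the glaucoma pools (edgeR log2 fold change 2.69, SE 0.46, adjusted p = 0.354, and DESeq2 adjusted p = 1.98e-06). C5ar1, the receptor for C5a, had 9.33 and 7.8 CPM in the naive pools and 96.5 and 32.8 CPM in the glaucoma pools (edgeR log2 fold change 2.74, SE 0.45, adjusted p = 0.339, and DESeq2 adjusted p = 8.83e-07). Both receptors were above both naive pools in each glaucoma pool, and kept a DESeq2 adjusted p under 0.05 without any 1 of the 4 pools. C1qa, a chain of the initiator C1q, had 153 and 245 CPM in the naive pools and 300.5 and 296 CPM in the glaucoma pools and was not called (edgeR log2 fold change 0.58, SE 0.31, adjusted p = 0.704, and DESeq2 adjusted p = 0.491). C3 overlapped between the groups, with 208 and 250.3 CPM in the naive pools and 175 and 225 CPM in the glaucoma pools (edgeR log2 fold change -0.2, SE 0.4, adjusted p = 0.942, and DESeq2 adjusted p = 0.925), as did the C1 inhibitor Serping1, with 251 and 229 CPM in the naive pools and 176 and 503 CPM in the glaucoma pools (edgeR log2 fold change 0.42, SE 0.42, adjusted p = 0.844, and DESeq2 adjusted p = 0.76). C1qb, another chain of C1q, was above naive in both glaucoma pools without a call (DESeq2 adjusted p = 0.176). Of the 19 complement genes 3 were called higher, Itgam being the third, and 0 were called lower. In this list 7 genes had both glaucoma pools above both naive pools, 0 had both below and 12 overlapped. Over all genes tested 17.5% had both above and 18.7% both below.

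The list of disease-associated and phagocytic genes of microglia and macrophages had 14 of 21 genes with both glaucoma pools above both naive pools and 9 called higher by DESeq2, 0 lower, at a median log2 fold change of 1.34. The summed level of the list overlapped between the groups, at 6814 CPM and 17037 CPM in the naive pools and 20922 CPM and 10765 CPM in the glaucoma pools, with the male glaucoma pool below the male naive pool. Lgals3, a secreted lectin of activated phagocytes, had 200.3 and 257 CPM in the naive pools and 934 and 722 CPM in the glaucoma pools (edgeR log2 fold change 1.84, SE 0.27, adjusted p = 0.297, and DESeq2 adjusted p = 1.29e-07). Cd68, a lysosomal membrane protein of phagocytes, had 38.7 and 49.2 CPM in the naive pools and 255 and 102 CPM in the glaucoma pools (edgeR log2 fold change 1.84, SE 0.39, adjusted p = 0.357, and DESeq2 adjusted p = 0.000652). Clec7a, a receptor for beta-glucans, had 3.55 and 3.63 CPM in the naive pools and 35 and 9.24 CPM in the glaucoma pools (edgeR log2 fold change 2.39, SE 0.46, adjusted p = 0.354, and DESeq2 adjusted p = 9.84e-05). Each of these 3 stood higher in both glaucoma pools, with the female pool first. Spp1, which encodes osteopontin, had 38.6 and 22.6 CPM in the naive pools and 6133 and 63.5 CPM in the glaucoma pools (edgeR log2 fold change 5.46, SE 1.48, adjusted p = 0.443, and DESeq2 adjusted p = 0.0134). The 2 glaucoma pools of Spp1 thus differed from each other by far more than the male glaucoma pool differed from naive MON. Axl, a receptor for dying cells, had 163 and 108 CPM in the naive pools and 239 and 300.2 CPM in the glaucoma pools (edgeR log2 fold change 1.02, SE 0.26, adjusted p = 0.416, and DESeq2 adjusted p = 0.0173), with the male pool the higher. DESeq2 called 7 genes of the list without the female glaucoma pool, 11 without the male pool and 5 without the naive female pool.

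Lysosomal genes differed over a narrow range. Of 20 genes, 16 had both glaucoma pools above both naive pools and none had both below, the median log2 fold change was 0.73 and the whole range ran from 0.13 to 1.91. The summed level was 8126 CPM and 7595 CPM in naive pools, and 19142 CPM (female) and 11361 CPM (male) in glaucoma. The 4 genes called higher were all cathepsins, the proteases of the lysosome. Ctsc (chromosome 7, 88278085 to 88310888), which activates serine proteases, had 47.4 and 35.8 CPM in the naive pools and 199.7 and 119 CPM in the glaucoma pools (edgeR log2 fold change 1.91, SE 0.21, adjusted p = 0.234, and DESeq2 adjusted p = 5.97e-12). Ctsd, the abundant aspartic protease, had 1666 and 1634 CPM in the naive pools and 6646 and 3142 CPM in the glaucoma pools (edgeR log2 fold change 1.45, SE 0.31, adjusted p = 0.357, and DESeq2 adjusted p = 0.00043). Ctsb, a cysteine protease, had 1168 and 922 CPM in the naive pools and 3633 and 2016 CPM in the glaucoma pools (edgeR log2 fold change 1.4, SE 0.26, adjusted p = 0.354, and DESeq2 adjusted p = 1.46e-05), and Ctsz a log2 fold change of 1.15. Ctsc and Ctsb kept a DESeq2 adjusted p under 0.05 without any 1 of the 4 pools, and Ctsd had 0.574 without the male glaucoma pool.

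The antigen presentation genes called higher were H2-Ab1, H2-Aa and Cd74, the 2 chains of a class II molecule and its invariant chain, 3 of 16 listed genes, with 0 called lower. H2-Ab1 had 25.5 and 30.3 CPM in the naive pools and 112 and 87.2 CPM in the glaucoma pools (edgeR log2 fold change 1.83, SE 0.23, adjusted p = 0.261, and DESeq2 adjusted p = 1.86e-08). Cd74 had 37.7 and 37.8 CPM in the naive pools and 125 and 144 CPM in the glaucoma pools (edgeR log2 fold change 1.84, SE 0.24, adjusted p = 0.261, and DESeq2 adjusted p = 3.63e-08). Female and male glaucoma pools were close to each other for both genes and apart from both naive pools. H2-Aa had 11.1 and 15.7 CPM in the naive pools and 35.1 and 27.1 CPM in the glaucoma pools (edgeR log2 fold change 1.22, SE 0.28, adjusted p = 0.358, and DESeq2 adjusted p = 0.0112). Over the whole list 11 genes had both glaucoma pools above both naive pools and the median log2 fold change was 0.56. Among 21 interferon-stimulated genes, which report type I interferon, 1 had both glaucoma pools above both naive pools, DESeq2 called 0, edgeR had 0 at an unadjusted p under 0.05, and the median was 0.15.

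Homeostatic microglial genes gave no call. Of 18 genes 8 had both glaucoma pools above both naive pools, 2 had both below, 0 were called by edgeR or DESeq2, 5 were higher at an unadjusted edgeR p under 0.05, and the median log2 fold change was 0.58. Tmem119, a membrane marker of microglia, had 156 and 134 CPM in the naive pools and 147 and 308 CPM in the glaucoma pools, with only the male glaucoma pool above naive (edgeR log2 fold change 0.59, SE 0.32, adjusted p = 0.703, and DESeq2 adjusted p = 0.472). The purine receptor P2ry12 behaved likewise, with 29.1 and 16.3 CPM in the naive pools and 21.9 and 51.5 CPM in the glaucoma pools (edgeR log2 fold change 0.65, SE 0.64, adjusted p = 0.844, and DESeq2 adjusted p = 0.733). Siglech was lower in both glaucoma pools without a call, with 33.9 and 34.6 CPM in the naive pools and 20.8 and 32.5 CPM in the glaucoma pools (edgeR log2 fold change -0.4, SE 0.23, adjusted p = 0.718, and DESeq2 adjusted p = 0.609). Cx3cr1, the fractalkine receptor, had 6.0 and 23.2 CPM in the naive pools and 7.05 and 9.99 CPM in the glaucoma pools here but 208 to 385 CPM at 2 and 6 weeks, a jump between libraries for which the part of read assignment was not tested, and it was not read as a level.

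Promoters of myeloid and protease genes are shown for the letters that the myeloid factor PU.1 and the injury-induced factor AP-1 are known to bind. In the 250 bases before the start of each gene, from the RefSeq table on GRCm38.p6, GAGGAA (the PU.1 core, both strands) was found in 23.1% of 27025 promoters and in 10 of 21 matched promoters of the 34 myeloid list genes called higher (47.6%). The AP-1 letters TGANTCA, which read alike on both strands, were found in 6.87% of all promoters and in 2 of 13 matched promoters of the 23 matrix genes called higher (15.4%). GAGGAA was also in 6 of those 13 matrix promoters (46.2%). These matches are descriptions of letters and show no binding. The last 200 bases before the start are printed for Itgam, at chr7:128062440-128062639 on the forward strand, and for Plaur, the receptor that holds the protease urokinase on the cell surface, at chr7:24462283-24462482 on the forward strand. Capitals mark GAGGAA or its reverse complement TTCCTC, and in Plaur also TGACTCA.
Itgam: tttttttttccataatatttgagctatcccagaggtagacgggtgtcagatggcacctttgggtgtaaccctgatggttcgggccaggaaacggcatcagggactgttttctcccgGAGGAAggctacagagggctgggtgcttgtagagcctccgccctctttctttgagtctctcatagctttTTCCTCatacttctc
Plaur: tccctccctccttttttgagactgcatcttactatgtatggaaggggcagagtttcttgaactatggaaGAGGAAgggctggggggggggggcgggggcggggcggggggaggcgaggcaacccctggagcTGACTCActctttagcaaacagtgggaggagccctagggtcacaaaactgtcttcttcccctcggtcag

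Cell division genes gave 19 of the DESeq2 calls, more than any other list, but the mitosis list was also the longest, with 47 genes. Some shorter lists had similar shares called higher. These were 8 of 18 tested Fc receptor and myeloid surface genes, and 9 of 21 genes in each of the disease-associated and matricellular lists. The share called higher over all genes was 1.77%. Of 47 mitosis genes 29 had both glaucoma pools above both naive pools and 2 had both below, DESeq2 called 19 higher and 0 lower, and the median edgeR log2 fold change was 2.17, with 28 genes higher at an unadjusted edgeR p under 0.05. The group rested on the female glaucoma pool: against the mean of the naive pools the median log2 difference was 3.48 in the female and 0.68 in the male pool. DESeq2 called 0 of the 47 genes without the female glaucoma pool, 27 without the male pool and 5 without the naive female pool. The summed level of the list was 426 CPM and 351 CPM in naive pools, 1039 CPM in the female and 357 CPM in the male glaucoma pool, where the male pool lay within the naive range. Anln, the most abundant member, which oligodendrocytes also express, had 276 and 224 CPM in the naive pools and 211 and 167 CPM in the glaucoma pools. Without Anln and Pttg1, left out after their levels were seen, the other 45 genes summed to 95.4 CPM and 76.4 CPM in naive pools and 792 CPM and 141 CPM in glaucoma pools, so that both glaucoma pools then stood above naive.

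Cdk1 (chromosome 10, 69335146 to 69352938), the kinase that starts mitosis, had 1.51 and 0.495 CPM in the naive pools and 27.6 and 3.24 CPM in the glaucoma pools (edgeR log2 fold change 3.58, SE 0.6, adjusted p = 0.339, and DESeq2 adjusted p = 2e-06). Its cyclins Ccnb1 and Ccnb2 had 2.49 and 1.54 CPM in the naive pools and 35.8 and 6.31 CPM in the glaucoma pools (edgeR log2 fold change 2.9, SE 1.04, adjusted p = 0.536, and DESeq2 adjusted p = 0.038) and 0.957 and 0 CPM in the naive pools and 14.4 and 2.71 CPM in the glaucoma pools (edgeR log2 fold change 4.32, SE 1.04, adjusted p = 0.389, and DESeq2 adjusted p = 0.000453). The kinase and both cyclins were lowest in the naive male pool and highest in the female glaucoma pool, with the male glaucoma pool between the naive pools and the female glaucoma pool. Mki67, the proliferation marker, had 1.98 and 1.21 CPM in the naive pools and 37.3 and 5.58 CPM in the glaucoma pools (edgeR log2 fold change 3.29, SE 0.81, adjusted p = 0.405, and DESeq2 adjusted p = 0.000695). Top2a, the topoisomerase that untangles replicated DNA, had 1.67 and 2.8 CPM in the naive pools and 50.9 and 5.59 CPM in the glaucoma pools (edgeR log2 fold change 2.79, SE 0.9, adjusted p = 0.5, and DESeq2 adjusted p = 0.0134). Both genes were far higher in the female than in the male glaucoma pool. Ccna2, the cyclin of S phase and G2, overlapped between the groups, with 1.97 and 1.43 CPM in the naive pools and 36.9 and 1.93 CPM in the glaucoma pools and the male glaucoma pool within the naive range (edgeR log2 fold change 2.89, SE 1.01, adjusted p = 0.529, and DESeq2 adjusted p = 0.0237). Cdc20, the activator of the anaphase-promoting complex, had 2.43 and 1.76 CPM in the naive pools and 29.4 and 6.16 CPM in the glaucoma pools (edgeR log2 fold change 2.77, SE 0.69, adjusted p = 0.409, and DESeq2 adjusted p = 0.00193), and Aurkb, the kinase of the chromosomal passenger complex, had 0.647 and 0.44 CPM in the naive pools and 15 and 3.0 CPM in the glaucoma pools (edgeR log2 fold change 3.68, SE 0.9, adjusted p = 0.405, and DESeq2 adjusted p = 0.00147). Racgap1 and Gtse1 rose by DESeq2 with edgeR log2 fold changes of 1.81 and 2.7, whereas Cdkn3 and Iqgap3, at 2.83 and 1.64, did not pass.

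The promoters of 3 of these genes are shown because the cell cycle homology region and the CCAAT box are known elements of genes expressed in G2 and mitosis. The letters TTTGAA or TTTAAA on either strand were found in 25.5% of all 27025 promoters and in 12 of 17 matched promoters of the 19 mitosis genes called higher (70.6%). CCAAT, or ATTGG on the other strand, was found in 34.5% of all promoters and in 16 of the 17 (94.1%). The AP-1 letters were in 0 of the 17. Of the 5 promoters of DNA replication genes called higher, 1 held TTTGAA or TTTAAA and 2 held CCAAT. Both elements stand in each stretch below, which covers the 200 bases before the start on the reverse strand: chr10:69352913-69353112 for Cdk1, chr13:100786487-100786686 for Ccnb1 and chr4:118437344-118437543 for Cdc20. Capitals mark TTTGAA or TTTAAA and CCAAT or ATTGG, and in these stretches no marked match overlaps another.
Cdk1: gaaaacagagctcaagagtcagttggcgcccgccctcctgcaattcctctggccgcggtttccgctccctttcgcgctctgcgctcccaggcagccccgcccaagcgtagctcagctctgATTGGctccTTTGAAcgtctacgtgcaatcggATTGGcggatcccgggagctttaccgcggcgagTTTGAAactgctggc
Ccnb1: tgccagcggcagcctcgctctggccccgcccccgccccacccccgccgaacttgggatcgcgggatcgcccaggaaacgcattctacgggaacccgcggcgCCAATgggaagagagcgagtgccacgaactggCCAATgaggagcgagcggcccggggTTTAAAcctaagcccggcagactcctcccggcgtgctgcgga
Cdc20: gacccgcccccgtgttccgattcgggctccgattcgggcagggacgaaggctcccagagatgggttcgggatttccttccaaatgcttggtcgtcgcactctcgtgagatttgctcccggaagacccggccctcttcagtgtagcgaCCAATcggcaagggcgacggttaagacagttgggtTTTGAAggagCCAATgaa

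DNA replication genes had 5 of 31 called higher by DESeq2 and 0 lower, at a median log2 fold change of 1.0. Against the naive mean the median was 1.67 in the female and 0.18 in the male pool. Rrm2, the subunit of ribonucleotide reductase that limits DNA synthesis, had 0.647 and 0.989 CPM in the naive pools and 43 and 2.82 CPM in the glaucoma pools (edgeR log2 fold change 4.21, SE 1.08, adjusted p = 0.416, and DESeq2 adjusted p = 0.00014). Cdt1, which loads the replicative helicase, had 0.553 and 0.659 CPM in the naive pools and 8.01 and 3.01 CPM in the glaucoma pools (edgeR log2 fold change 3.06, SE 0.6, adjusted p = 0.354, and DESeq2 adjusted p = 0.000163). Mcm6, a subunit of that helicase, had 19.1 and 16.4 CPM in the naive pools and 58 and 30.9 CPM in the glaucoma pools (edgeR log2 fold change 1.27, SE 0.25, adjusted p = 0.354, and DESeq2 adjusted p = 0.00237). In all 3 both glaucoma pools exceeded both naive pools, with the male pool much nearer to naive. Ccnd1, the G1 cyclin, was called too, with 133 and 169 CPM in the naive pools and 363 and 291 CPM in the glaucoma pools, both glaucoma pools near each other (edgeR log2 fold change 1.09, SE 0.25, adjusted p = 0.375, and DESeq2 adjusted p = 0.0079). DESeq2 called 0 DNA replication genes without the female glaucoma pool or without the naive female pool, and 10 without the male glaucoma pool. Of the 22 listed p53 targets 5 were called higher (Pmaip1, Gtse1, Thbs1 and Rrm2 among them) and 0 lower, at a median of 0.60, and 0 were called without the female glaucoma pool and 2 without the naive female pool. Gtse1, Rrm2 and Thbs1 are also on the lists of mitosis, DNA replication or matricellular genes.

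**Figure D3:**
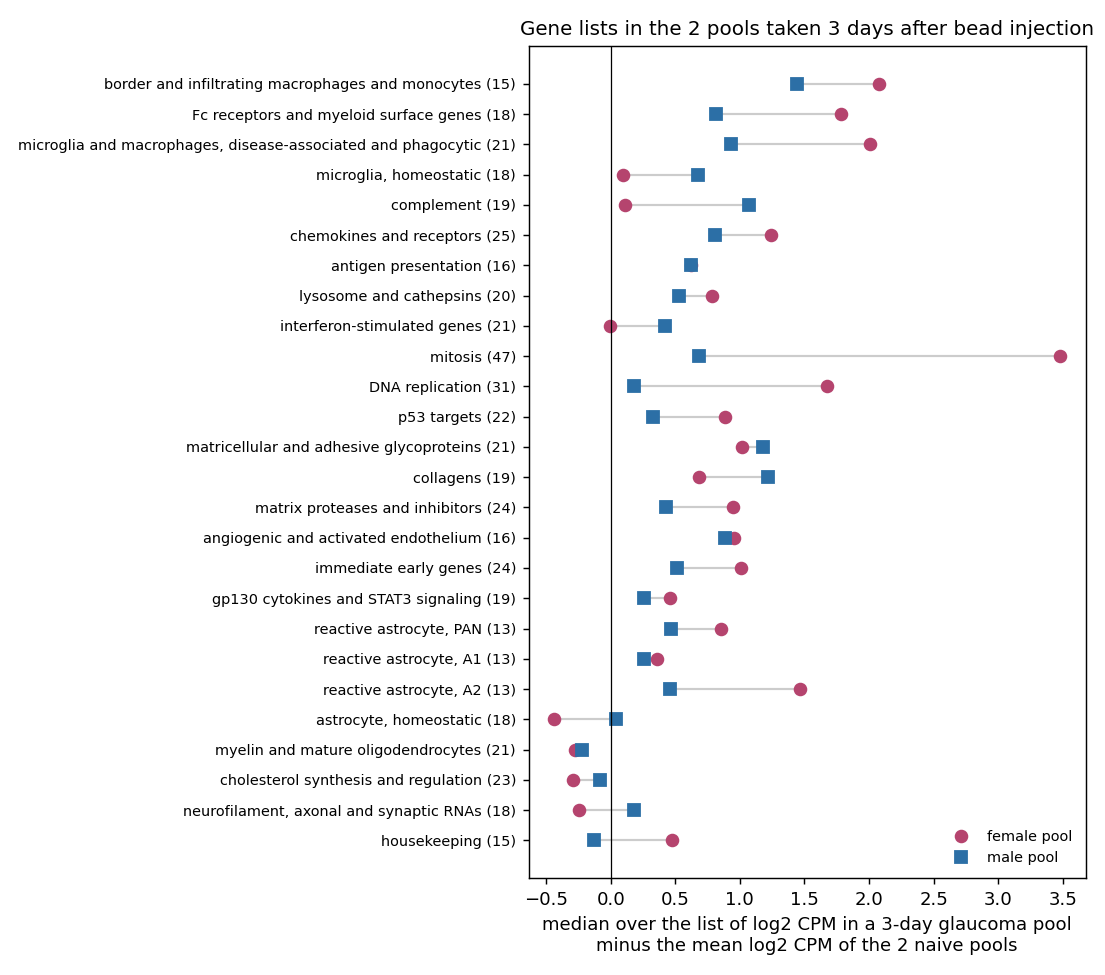
Median over each gene list of the log2 CPM in the female (circle) and male (square) 3-day glaucoma pool minus the mean log2 CPM of the 2 naive pools, with the number of tested genes in brackets. Mitosis shows a wide gap between the pools (3.48 and 0.68), collagens and complement are higher in the male pool, and the myelin list lies below 0 in both.

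Part of the collagens and of the adhesive glycoproteins rose by DESeq2, and matrix proteoglycans gave no call. Of 19 collagen genes 15 had both glaucoma pools above both naive pools and none had both below, DESeq2 called 6 higher and 0 lower, and the median log2 fold change was 1.07. Summed collagen levels were 586 CPM and 486 CPM in naive pools, 878 CPM in the female and 1532 CPM in the male glaucoma pool, so here the male pool was the higher. Col12a1, a collagen that links fibrils to other matrix, had 5.92 and 6.81 CPM in the naive pools and 23.6 and 17.7 CPM in the glaucoma pools (edgeR log2 fold change 1.67, SE 0.35, adjusted p = 0.357, and DESeq2 adjusted p = 0.00121). Col4a1, the main collagen of basement membranes, had 34 and 32.5 CPM in the naive pools and 71.5 and 61.4 CPM in the glaucoma pools (edgeR log2 fold change 0.99, SE 0.22, adjusted p = 0.357, and DESeq2 adjusted p = 0.00915). Col8a1 and Col18a1, of vessel walls and basement membranes, rose by DESeq2 with edgeR log2 fold changes of 1.61 and 1.6. DESeq2 called 8 collagens without the female glaucoma pool, and 2 without the male glaucoma pool or without the naive female pool. Of 17 matrix proteoglycan genes 0 were called, at a median of 0.26. Both glaucoma pools were above both naive pools for 3 of them, below for 1, and 13 overlapped. Over all genes tested 17.5% had both above and 18.7% both below. Genes of meningeal and scleral fibroblasts, which make collagen and could enter with the sheath, summed to 3496 CPM and 7093 CPM in naive and 1932 CPM and 6410 CPM in glaucoma pools, with 0 of 16 genes called and 14 overlapping. That sum was higher in the male pool of each group. Against the naive mean the median log2 difference of these 16 genes was 1.42 in the male and -0.25 in the female glaucoma pool, beside 1.22 and 0.69 for the collagens. Without the female glaucoma pool DESeq2 called 5 of the fibroblast genes higher, and without the male pool 2 lower. The part of these cells in the collagen values was not tested.

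Matricellular and adhesive glycoproteins had 9 of 21 genes called higher by DESeq2, 0 lower, and a median log2 fold change of 1.49. Fn1, fibronectin, had 73.4 and 128 CPM in the naive pools and 404 and 420.5 CPM in the glaucoma pools (edgeR log2 fold change 2.02, SE 0.55, adjusted p = 0.443, and DESeq2 adjusted p = 0.00586), about alike in both glaucoma pools. Ccn1, a matrix signal that cells secrete after injury, had 30.7 and 20.4 CPM in the naive pools and 333 and 66 CPM in the glaucoma pools (edgeR log2 fold change 2.69, SE 0.51, adjusted p = 0.354, and DESeq2 adjusted p = 6.37e-06), and Ccn2 had 77.1 and 101 CPM in the naive pools and 179 and 375 CPM in the glaucoma pools (edgeR log2 fold change 1.58, SE 0.38, adjusted p = 0.394, and DESeq2 adjusted p = 0.00506), the one led by the female pool and the other by the male. For each of these 3 genes both glaucoma pools stood above both naive pools. Thbs1, thrombospondin 1, had 1.27 and 2.42 CPM in the naive pools and 167 and 4.8 CPM in the glaucoma pools (edgeR log2 fold change 4.96, SE 1.46, adjusted p = 0.466, and DESeq2 adjusted p = 0.0346), nearly all of it in the female pool. Tgfbi, a protein induced by TGF-beta, had 28.3 and 20.9 CPM in the naive pools and 118 and 40.2 CPM in the glaucoma pools (edgeR log2 fold change 1.57, SE 0.35, adjusted p = 0.357, and DESeq2 adjusted p = 0.00331). DESeq2 called 4 genes of the list without the naive female pool and 6 without the female glaucoma pool. The fibulin gene Fbln5 was not called, with 6.35 and 4.45 CPM in the naive pools and 6.82 and 13.4 CPM in the glaucoma pools (edgeR log2 fold change 0.86, SE 0.45, adjusted p = 0.697, and DESeq2 adjusted p = 0.455).

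Integrins, proteases and their inhibitors gave fewer calls with some of the clearest values. Of 25 integrin and laminin genes 4 were called higher (Itga5, Itga7, Itgam and Itgb2) and 0 lower. Itga5 (chromosome 15, 103344286 to 103366763), the alpha chain of the fibronectin receptor, had 11.4 and 7.75 CPM in the naive pools and 85.6 and 35 CPM in the glaucoma pools (edgeR log2 fold change 2.55, SE 0.33, adjusted p = 0.261, and DESeq2 adjusted p = 4.22e-09). Itga7, a laminin receptor chain, had 15.8 and 11 CPM in the naive pools and 32.1 and 29.9 CPM in the glaucoma pools (edgeR log2 fold change 1.21, SE 0.24, adjusted p = 0.354, and DESeq2 adjusted p = 0.00276). Of 24 protease and inhibitor genes 4 were called higher and 0 lower. Plaur had 1.65 and 1.37 CPM in the naive pools and 57.2 and 10.2 CPM in the glaucoma pools (edgeR log2 fold change 4.0, SE 0.63, adjusted p = 0.334, and DESeq2 adjusted p = 1.24e-08). Timp1, an inhibitor of metalloproteinases, had 4.09 and 8.24 CPM in the naive pools and 119 and 18.8 CPM in the glaucoma pools (edgeR log2 fold change 3.06, SE 0.79, adjusted p = 0.416, and DESeq2 adjusted p = 0.000433). Both genes were thus above naive in both pools, with the female pool higher by several times. Mmp9, a gelatinase, had 0.0809 and 0 CPM in the naive pools and 10.5 and 0.855 CPM in the glaucoma pools, that is 6 counts in the naive female pool and 0 in the naive male pool (edgeR log2 fold change 6.61, SE 1.15, adjusted p = 0.354, and DESeq2 adjusted p = 6.37e-06). Itga5 and Plaur kept a DESeq2 adjusted p under 0.05 without any 1 of the 4 pools.

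Vessel genes gave one of the most stable calls. Esm1 (chromosome 13, 113209659 to 113218098), which encodes endocan and marks endothelial tip cells, had 3.16 and 1.76 CPM in the naive pools and 53.1 and 16.8 CPM in the glaucoma pools (edgeR log2 fold change 3.72, SE 0.44, adjusted p = 0.261, and DESeq2 adjusted p = 1.92e-12). It kept a DESeq2 adjusted p under 0.05 without any 1 of the 4 pools, and edgeR on all 12 MON libraries called it too (log2 fold change 3.75, adjusted p = 0.0168). Of 16 angiogenic and activated endothelial genes 3 were called higher (Esm1, Nid2 and Vcam1) and 0 lower. In that list 5 had both glaucoma pools above both naive pools, 1 had both below and 10 overlapped. Of 17 genes of resting endothelium and barrier 0 were called, 1 had both above, 4 had both below and 12 overlapped. Over all genes tested 17.5% had both above and 18.7% both below. A difference between the 2 lists was not tested. Adm, a vasodilator peptide induced by low oxygen, had 6.36 and 8.41 CPM in the naive pools and 35.5 and 19.8 CPM in the glaucoma pools (edgeR log2 fold change 1.83, SE 0.36, adjusted p = 0.354, and DESeq2 adjusted p = 0.000673), and Ldha, which makes lactate, had 363 and 315 CPM in the naive pools and 884 and 588 CPM in the glaucoma pools (edgeR log2 fold change 1.11, SE 0.24, adjusted p = 0.357, and DESeq2 adjusted p = 0.00176), the 2 of 14 hypoxia-responsive genes that were called. Without the female glaucoma pool 0 of the 14 were called.

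Cytokine and early response genes rose by DESeq2 in small numbers. Of 24 IL-1, TNF and Toll-like receptor genes 15 had both glaucoma pools above both naive pools, 6 were called higher and 0 lower, and the median log2 fold change was 0.82. Il1a, an alarm cytokine of microglia, had 2.95 and 1.59 CPM in the naive pools and 6.74 and 5.88 CPM in the glaucoma pools (edgeR log2 fold change 1.55, SE 0.38, adjusted p = 0.409, and DESeq2 adjusted p = 0.0116). Tnfrsf1b, the second TNF receptor, had 18.4 and 17.8 CPM in the naive pools and 56.1 and 34.1 CPM in the glaucoma pools (edgeR log2 fold change 1.29, SE 0.28, adjusted p = 0.357, and DESeq2 adjusted p = 0.00671). These were modest levels and both glaucoma pools were close to each other for Il1a. DESeq2 called 1 gene of this list without the female glaucoma pool and 2 without the naive female pool. In the gp130 and STAT3 list 4 of 19 genes were called higher, all of them ligands, a receptor chain or the feedback inhibitor, and 0 were called without the female glaucoma pool and 2 without the naive female pool. Lif, a gp130 ligand, had 0.364 and 0.275 CPM in the naive pools and 7.29 and 2.51 CPM in the glaucoma pools (edgeR log2 fold change 3.79, SE 1.15, adjusted p = 0.479, and DESeq2 adjusted p = 0.0178). Clcf1, another ligand of this family, had 4.64 and 4.56 CPM in the naive pools and 29.2 and 9.16 CPM in the glaucoma pools (edgeR log2 fold change 1.96, SE 0.49, adjusted p = 0.41, and DESeq2 adjusted p = 0.00677). Osmr, the oncostatin M receptor chain, had 34 and 27.1 CPM in the naive pools and 81.1 and 43.6 CPM in the glaucoma pools (edgeR log2 fold change 1.0, SE 0.26, adjusted p = 0.426, and DESeq2 adjusted p = 0.0384), and Socs3, which shuts the pathway down, had 19.5 and 17.4 CPM in the naive pools and 101 and 40.9 CPM in the glaucoma pools (edgeR log2 fold change 1.89, SE 0.39, adjusted p = 0.357, and DESeq2 adjusted p = 0.000721). Stat3 itself overlapped, with 226 and 192 CPM in the naive pools and 214 and 249 CPM in the glaucoma pools (edgeR log2 fold change 0.15, SE 0.21, adjusted p = 0.908, and DESeq2 adjusted p = 0.871).

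Among 24 immediate early genes 5 were called higher (Junb, Egr1, Egr2, Atf3 and Myc) and 0 lower, and 13 had both glaucoma pools above both naive pools. Egr1, a factor switched on within minutes of growth factor signals, had 14.8 and 8.9 CPM in the naive pools and 77 and 28.7 CPM in the glaucoma pools (edgeR log2 fold change 2.02, SE 0.28, adjusted p = 0.27, and DESeq2 adjusted p = 4.36e-07). Junb, an AP-1 subunit, had 23.9 and 18.7 CPM in the naive pools and 66.6 and 61.6 CPM in the glaucoma pools (edgeR log2 fold change 1.6, SE 0.24, adjusted p = 0.297, and DESeq2 adjusted p = 3.81e-06). Egr2 had 0.458 and 0.55 CPM in the naive pools and 7.05 and 7.82 CPM in the glaucoma pools (edgeR log2 fold change 4.0, SE 0.95, adjusted p = 0.385, and DESeq2 adjusted p = 0.00043). All 3 were higher in both glaucoma pools, and for Junb and Egr2 the pools were nearly equal. Atf3, a stress factor of injured neurons and glia, had 15.2 and 14 CPM in the naive pools and 35.6 and 25.6 CPM in the glaucoma pools (edgeR log2 fold change 1.05, SE 0.26, adjusted p = 0.408, and DESeq2 adjusted p = 0.0281), and Myc had 4.18 and 4.12 CPM in the naive pools and 22.5 and 8.99 CPM in the glaucoma pools (edgeR log2 fold change 1.78, SE 0.42, adjusted p = 0.383, and DESeq2 adjusted p = 0.00527). In the list of heat shock and unfolded protein genes 3 of 15 were called higher (Hspa1b, Sdf2l1 and Creld2). Hspa1b, an inducible HSP70, had 32.8 and 61.8 CPM in the naive pools and 62.4 and 136 CPM in the glaucoma pools, so that the female glaucoma pool lay barely above the male naive pool (edgeR log2 fold change 1.02, SE 0.22, adjusted p = 0.357, and DESeq2 adjusted p = 0.00553).

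Of the reactive astrocyte lists, PAN and A2 gave calls and A1 gave none, but this split depended on the libraries fitted. Over all genes DESeq2 called 1.77% higher. In the reactive list shared by several injuries (PAN) 3 of 13 were called higher (Steap4, Timp1 and Osmr), in the A2 list 3 of 13 (Clcf1, Tm4sf1 and Cd14), and in the A1 list 0 of 13, with medians of 0.61, 1.18 and 0.42. With the 4 libraries of the comparison alone DESeq2 called 0 PAN genes, 1 A2 gene and 0 A1 genes. Which of the lists held a call also changed when a glaucoma pool was left out. Differences between these lists were not tested, and Clcf1, Cd14 and Timp1 are also expressed by myeloid or other cells. Gfap, the intermediate filament of astrocytes, was abundant and overlapped between the groups, with 10750.4 and 8209 CPM in the naive pools and 9779.9 and 12674 CPM in the glaucoma pools (edgeR log2 fold change 0.25, SE 0.29, adjusted p = 0.875, and DESeq2 adjusted p = 0.793). Steap4, a metalloreductase, had 0.162 and 0.44 CPM in the naive pools and 2.52 and 2.74 CPM in the glaucoma pools (edgeR log2 fold change 3.38, SE 0.75, adjusted p = 0.357, and DESeq2 adjusted p = 0.00331). Serpina3n, a serine protease inhibitor of reactive astrocytes, had 751 and 837 CPM in the naive pools and 1434 and 1096 CPM in the glaucoma pools and was not called (edgeR log2 fold change 0.68, SE 0.27, adjusted p = 0.59, and DESeq2 adjusted p = 0.216). Of the other genes the study names, Ptgs2, Sphk1, Slc10a6, Dock2 and Fcrls had both glaucoma pools above both naive pools but no call, with DESeq2 adjusted p of 0.79, 0.152, 0.373, 0.052 and 0.0507.

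Over all genes tested 17.5% had both glaucoma pools above both naive pools and 18.7% had both below. Of 18 homeostatic astrocyte genes none had both above, 5 had both below and 1 fell by DESeq2. That gene was Slc1a2, the main glutamate transporter of astrocytes, with 227 and 309 CPM in the naive pools and 83.9 and 152 CPM in the glaucoma pools (edgeR log2 fold change -1.2, SE 0.31, adjusted p = 0.426, and DESeq2 adjusted p = 0.0218). Slc6a11, a GABA transporter, was also called lower, with 56.8 and 45.1 CPM in the naive pools and 25.9 and 22.3 CPM in the glaucoma pools (edgeR log2 fold change -1.08, SE 0.24, adjusted p = 0.357, and DESeq2 adjusted p = 0.0116). For both transporters the 2 glaucoma pools were below the 2 naive pools.

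Myelin and axon genes gave 1 call. Of 21 genes of myelin and mature oligodendrocytes 9 had both glaucoma pools below both naive pools, 2 had both above, 1 was called lower, and the median log2 fold change was -0.18. Myrf, the factor that keeps oligodendrocytes mature, was the gene called, with 258 and 302 CPM in the naive pools and 163 and 98.6 CPM in the glaucoma pools (edgeR log2 fold change -1.11, SE 0.28, adjusted p = 0.416, and DESeq2 adjusted p = 0.0237). Mbp, the most abundant myelin gene, overlapped, with 86351 and 72407 CPM in the naive pools and 58540.0 and 92221 CPM in the glaucoma pools (edgeR log2 fold change -0.09, SE 0.31, adjusted p = 0.969, and DESeq2 adjusted p = 0.958). Mog also gave no call, at an edgeR log2 fold change of -0.27. Among 21 genes of oligodendrocyte precursors and newly formed cells 5 had both glaucoma pools below both naive pools, none had both above and 0 were called by edgeR or DESeq2. Olig2 had 27.2 and 54.4 CPM in the naive pools and 22 and 22.2 CPM in the glaucoma pools (edgeR log2 fold change -0.86, SE 0.35, adjusted p = 0.606, and DESeq2 adjusted p = 0.318), with the naive pools themselves a wide way apart. Cholesterol synthesis genes gave 6 below, none above and 0 calls of 23, at a median of -0.22. Over all genes tested 18.7% had both glaucoma pools below both naive pools. The counts below in the precursor and cholesterol lists were near that share. Axonal and synaptic RNAs gave 0 calls of 18 at a median of 0.05, and Nefl, a neurofilament chain, overlapped with 103 and 62.4 CPM in the naive pools and 67.8 and 127 CPM in the glaucoma pools (edgeR log2 fold change 0.14, SE 0.38, adjusted p = 0.958, and DESeq2 adjusted p = 0.94).

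The strongest lower calls were of genes at modest levels. Lrrc4b (chromosome 7, 44429018 to 44463351), a synaptic adhesion protein, had 18 and 32.1 CPM in the naive pools and 1.98 and 2.63 CPM in the glaucoma pools (edgeR log2 fold change -3.45, SE 0.63, adjusted p = 0.354, and DESeq2 adjusted p = 2.73e-06). Both glaucoma pools lay far below both naive pools, and the adjusted p by DESeq2 stayed under 0.05 without any 1 of the 4 pools. Kcna2, the potassium channel beside the nodes of myelinated axons, had 34.7 and 23.6 CPM in the naive pools and 2.26 and 14.2 CPM in the glaucoma pools (edgeR log2 fold change -2.39, SE 0.68, adjusted p = 0.452, and DESeq2 adjusted p = 0.00612), lowest in the female pool. Gp1bb, a chain of the platelet receptor for von Willebrand factor, had 7.28 and 3.19 CPM in the naive pools and 0.184 and 0.312 CPM in the glaucoma pools (edgeR log2 fold change -4.36, SE 0.96, adjusted p = 0.357, and DESeq2 adjusted p = 0.00028). Hif3a, a dampening member of the hypoxia factor family, had 11.8 and 14.3 CPM in the naive pools and 3.12 and 3.19 CPM in the glaucoma pools (edgeR log2 fold change -2.02, SE 0.46, adjusted p = 0.358, and DESeq2 adjusted p = 0.00219), with the glaucoma pools almost equal. Plin4, a lipid droplet protein that glucocorticoids induce, had 89.9 and 95.2 CPM in the naive pools and 33.3 and 21 CPM in the glaucoma pools (edgeR log2 fold change -1.74, SE 0.38, adjusted p = 0.357, and DESeq2 adjusted p = 0.00208) and was the 1 call among 16 glucocorticoid-responsive genes, whereas Tsc22d3 of that list had 258 and 233 CPM in the naive pools and 265 and 302 CPM in the glaucoma pools (edgeR log2 fold change 0.2, SE 0.22, adjusted p = 0.869, and DESeq2 adjusted p = 0.824). Heca had 2.18 and 8.79 CPM in the naive pools and 0.533 and 0.529 CPM in the glaucoma pools (edgeR log2 fold change -3.18, SE 0.63, adjusted p = 0.354, and DESeq2 adjusted p = 7.13e-05), and Adcy6, an adenylyl cyclase, had 10.1 and 16.4 CPM in the naive pools and 5.05 and 1.28 CPM in the glaucoma pools (edgeR log2 fold change -2.38, SE 0.68, adjusted p = 0.452, and DESeq2 adjusted p = 0.0108).

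Several of the largest higher calls had almost no counts in naive MON. Acod1, which makes the antimicrobial itaconate in macrophages, had 1 count in the naive pools together and 338 in the glaucoma pools, of which 333 were in the female pool, a ratio of 244 (95% exact counting interval 43.4 to 9653). Trem1, an amplifier of myeloid inflammation, had 2 counts and 235 counts, a ratio of 84.7 (interval 23.2 to 704). These intervals cover counting error only and not the spread between pools. Hpse, which cuts heparan sulfate, had 0.0944 and 0 CPM in the naive pools and 4.81 and 0.326 CPM in the glaucoma pools, and Lrrc25, a myeloid membrane protein, had 0.108 and 0 CPM in the naive pools and 4.08 and 1.26 CPM in the glaucoma pools, with DESeq2 adjusted p of 0.0351 and 6.06e-05. All of these lay below 1 CPM in both naive pools.

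Within each sex, the female glaucoma pool was compared with the female naive pool and the male with the male. Over the 341 genes called higher the median log2 difference was 1.99 in the female pair and 1.45 in the male pair, and 215 genes differed more in the female pair. Of the 102 called lower 100 were in the edgeR fit. Over these 100 the medians were -1.38 and -2.09, and 34 differed more in the female pair. Against the mean of both naive pools, the medians over all genes tested were near 0 (0.02 in the female and -0.01 in the male glaucoma pool). The called genes were chosen from the same pools, so the signs of their medians follow from that choice. Each pair is 1 pool against 1 pool, so the differences within a sex have no replicate check.

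**Figure D4:**
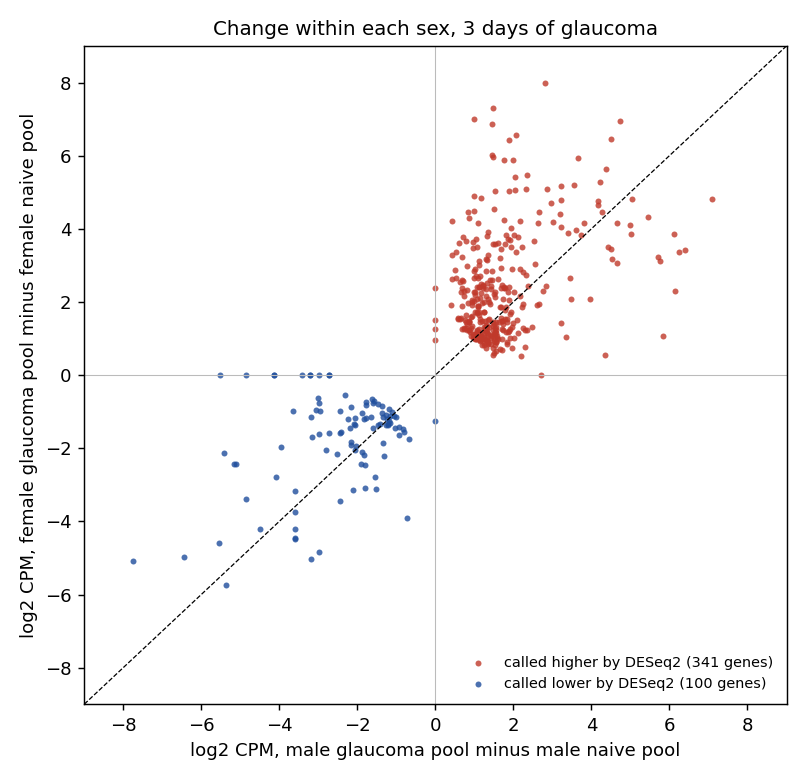
Log2 CPM of the glaucoma pool minus the naive pool within the males (horizontal axis) and within the females (vertical axis), with the line of equal change dashed. Genes are those called by DESeq2 and also in the edgeR fit. Of the 341 genes called higher, 215 lie above that line, some by several log2 units, and lower calls on the horizontal zero line had no counts in either female pool.

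To place the 3-day MON in the course of the model, it was compared directly with MON 2 weeks and 6 weeks after bead injection in the same fit. This comparison and those with crush and the UON all use the same 3-day pools, so they are not independent of each other. Against 2 weeks edgeR called 0 genes of 22960 (0%, with 1156 at an unadjusted p under 0.05) and DESeq2 called 73 of 21656 higher at 3 days (0.337%) and 80 lower (0.369%). Against 6 weeks edgeR called 0 (0%, 1138 at an unadjusted p under 0.05) and DESeq2 137 higher (0.633%) and 48 lower (0.222%). One library at each later time carried surface epithelium: that list summed to 1861.5 CPM in the 2-week male and 2108 CPM in the 6-week female pool against 4.21 to 16.6 CPM in the naive and 3-day pools, and the keratins Krt6b (both times) and Krt15 (6 weeks) were among the 3 lowest calls named at each time.

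Some mitosis genes were called higher at 3 days than later, and the summed list was above the later times in the female pool, while the male pool overlapped with them. The median difference was 2.14 on the log2 scale against 2 weeks, with 12 of 47 called higher by DESeq2 and 0 lower, and 1.79 against 6 weeks, with 4 higher and 0 lower. The summed level was 1039 CPM in the female and 357 CPM in the male pool of 3 days, 361 CPM and 333 CPM at 2 weeks, and 476 CPM and 451 CPM at 6 weeks (female, male). Without Anln and Pttg1 the male 3-day pool, at 141 CPM, lay above both 2-week pools (113 CPM and 86.4 CPM) and between the 6-week pools (181 CPM and 86.1 CPM). Cdk1 had 2.63 and 1.3 CPM at 2 weeks and 3.38 and 0.819 CPM at 6 weeks (female, male), below the female and mostly below the male pool of 3 days (edgeR log2 difference 2.4, SE 0.57, edgeR adjusted p = 0.933, DESeq2 adjusted p = 0.00808). Aurkb had 0.478 and 0.365 CPM at 2 weeks (edgeR log2 difference 3.89, SE 0.9, edgeR adjusted p = 0.933, DESeq2 adjusted p = 0.00132). The male 3-day pool, with 3.24 CPM of Cdk1, lay just under the 6-week female pool, so the later times and 3 days did not separate fully.

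Monocyte and macrophage genes gave more calls against 6 weeks than against 2 weeks. Against 2 weeks the median of the border and infiltrating list was 0.80 with 1 gene called higher, F13a1, and against 6 weeks 2.83 with 7 called higher (F13a1, Pf4, Folr2, Ms4a7, Ccr2, Chil3 and Fn1). Ccr2 had 3.31 and 2.66 CPM at 2 weeks and 0.263 and 0.574 CPM at 6 weeks (edgeR log2 difference of 3 days over 6 weeks 3.59, SE 0.67, edgeR adjusted p = 0.628, DESeq2 adjusted p = 4.8e-05). F13a1 had 5.38 and 2.33 CPM at 2 weeks, below both 3-day pools (edgeR log2 difference 2.54, SE 0.56, edgeR adjusted p = 0.933, DESeq2 adjusted p = 0.00217). Ms4a7 at 2 weeks had 6.3 and 12.3 CPM, within the range of the 3-day pools. Among the 3 highest calls against 6 weeks, Dpep2 and Cd200r4 had 0 counts in both 6-week pools and 11.4 and 0.692 CPM (Dpep2) and 6.17 and 0.163 CPM (Cd200r4) at 3 days. Whether the course of mitosis and macrophage genes differs was not tested.

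Collagen genes followed. They had a median of 0.66 on the log2 scale against 2 weeks, with Col12a1 called higher, and of 1.3 against 6 weeks, with 8 of 19 called higher. Col12a1 had 5.3 and 4.4 CPM at 2 weeks and 3.7 and 2.23 CPM at 6 weeks, far below both 3-day pools (against 2 weeks 2.08, SE 0.35, edgeR adjusted p = 0.933, DESeq2 adjusted p = 3.67e-05, against 6 weeks 2.82, SE 0.36, edgeR adjusted p = 0.355, DESeq2 adjusted p = 3.12e-10). Hspa1b was higher at 3 days than at 2 weeks (1.98, SE 0.23, edgeR adjusted p = 0.573, DESeq2 adjusted p = 1.04e-10), as was Tsc22d3, with 82.8 and 114 CPM at 2 weeks (1.53, SE 0.23, edgeR adjusted p = 0.81, DESeq2 adjusted p = 8.07e-07). C3 was called lower at 3 days, with 364 and 837 CPM at 2 weeks and a log2 difference of -1.55, SE 0.42, edgeR adjusted p = 0.933, DESeq2 adjusted p = 0.0307. Antigen presentation genes H2-Ab1 and Cd74 were higher than at 6 weeks (1.53, SE 0.23, edgeR adjusted p = 0.504, DESeq2 adjusted p = 6.34e-06 for H2-Ab1, 1.48, SE 0.24, edgeR adjusted p = 0.504, DESeq2 adjusted p = 3.52e-05 for Cd74).

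**Figure D5:**
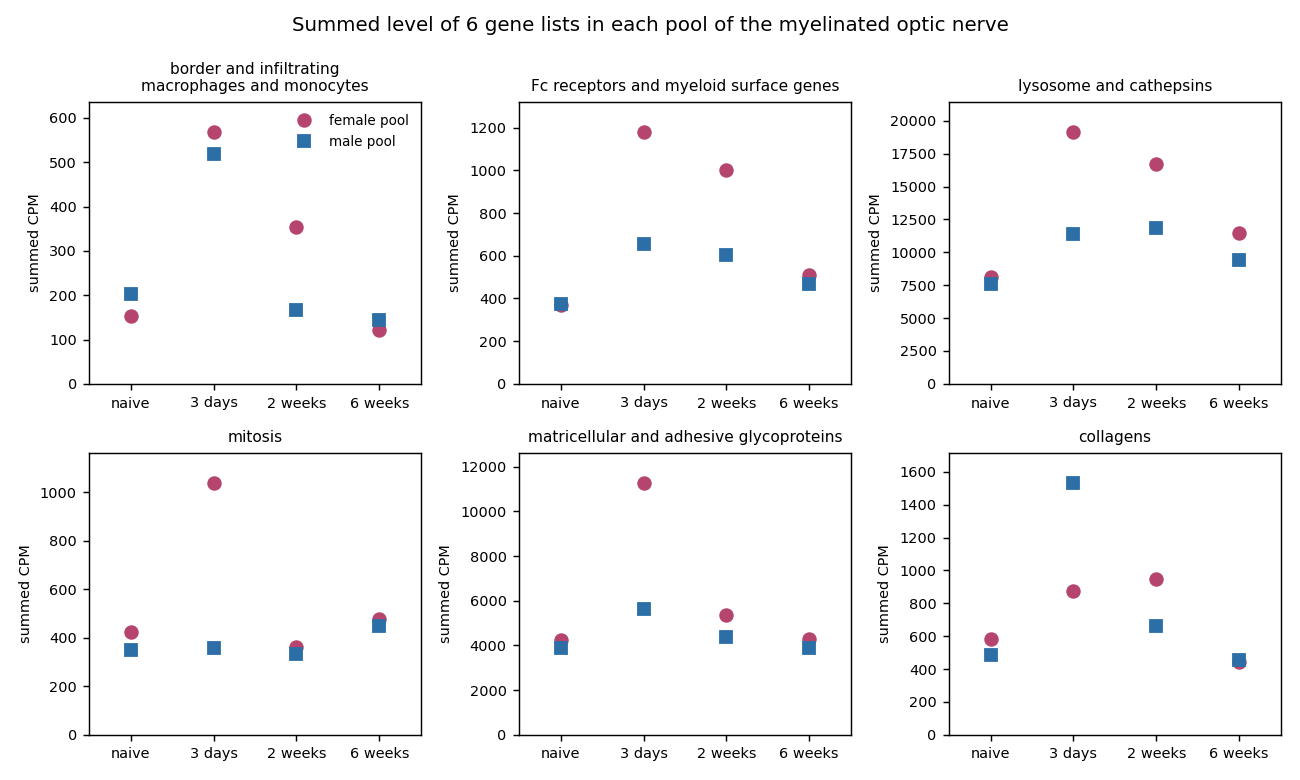
Summed CPM of 6 gene lists in each MON pool of the naive, 3-day, 2-week and 6-week glaucoma groups, 1 point per pool, female as circles and male as squares. Each of the 6 sums is highest in a 3-day pool, and lysosomal and Fc receptor sums in both 2-week pools still exceed both naive pools.

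The same segment 3 days after optic nerve crush was compared with 3 days of glaucoma in a fit of all 12 MON libraries. edgeR called 4 of 24738 genes (0.0162%), 3 higher in glaucoma and 1 lower, and had 2562 at an unadjusted p under 0.05, while DESeq2 called 287 of 17134 higher in glaucoma (1.68%) and 286 lower (1.67%). Of the 4 edgeR calls 2 were mitochondrial genes whose counts jump between 0 and high values. The lowest adjusted p was that of the predicted gene Gm3226, with 119 and 108 CPM in glaucoma (female, male; scaled over 12 libraries) and 1.28 and 0.537 CPM after crush (7.09, SE 0.39, edgeR adjusted p = 0.000136, DESeq2 adjusted p = 3.04e-82). Between glaucoma and naive MON Gm3226 was not called, at a log2 fold change of 0.26. The other call was Igf2, a growth factor of meninges and vessels, with 11.6 and 38 CPM in glaucoma (female, male; scaled over 12 libraries) and 0.48 and 0.37 CPM after crush (5.82, SE 0.64, edgeR adjusted p = 0.0279, DESeq2 adjusted p = 3.95e-18). Igf2 in naive MON, at 21 and 75.4 CPM, overlapped with glaucoma. The list of meningeal fibroblast genes had a median difference of 1.10, with Slc6a13, Slc13a4 and Igf2 called higher by DESeq2 in glaucoma.

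Mitosis genes were lower in glaucoma than after crush, with a median of -2.26 and 28 of 47 called lower by DESeq2, 0 higher. Mki67 had 38.1 and 5.81 CPM in glaucoma and 76.3 and 107 CPM after crush (edgeR log2 difference -2.7, SE 0.79, edgeR adjusted p = 0.357, DESeq2 adjusted p = 0.00701). Prc1, of the midzone of the spindle, had 38 and 6.5 CPM in glaucoma and 86.8 and 99.1 CPM after crush (-2.51, SE 0.59, edgeR adjusted p = 0.349, DESeq2 adjusted p = 0.00162). DNA replication genes had 9 of 31 called lower at a median of -1.31, and lysosomal genes 7 of 20 at a median of -0.72. Ctsd had 6794 and 3273 CPM in glaucoma and 11714 and 15161 CPM after crush (-1.54, SE 0.39, edgeR adjusted p = 0.349, DESeq2 adjusted p = 0.00294). Cd68, C3ar1 and C5ar1 were also called lower in glaucoma, and Col4a1 and Col4a2 of the collagens. Adm was called higher in glaucoma, with 36.3 and 20.6 CPM against 10.8 and 11 CPM (1.36, SE 0.39, edgeR adjusted p = 0.357, DESeq2 adjusted p = 0.0479), as was Tsc22d3, with 271 and 315 CPM against 125 and 86.3 CPM (1.48, SE 0.26, edgeR adjusted p = 0.3, DESeq2 adjusted p = 0.000252). Border macrophage genes had a median of -1.26 with 1 of 15, Pf4, called lower, and Ccr2 overlapped at 6.82 and 3.97 CPM in glaucoma and 6.62 and 28.8 CPM after crush.

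Finally the response in the MON was set against that in the UON of the same mice by the interaction of tissue and time over 16 libraries. edgeR called 0 of 25807 genes (0%), with 1511 at an unadjusted p under 0.05 and a smallest adjusted p of 0.1045, and DESeq2 called 28 of 23188 higher in the MON (0.121%) and 34 lower (0.147%). The class II genes were the only list with several calls: H2-Aa, H2-Ab1 and Cd74 were all called higher in the MON response by DESeq2. H2-Ab1 in the UON had 83.9 and 103 CPM in the naive pools and 70.4 and 77.7 CPM in the glaucoma pools (interaction 2.2, SE 0.3, edgeR adjusted p = 0.105, DESeq2 adjusted p = 1.79e-06), and Cd74 in the UON had 145 and 209 CPM in the naive pools and 83.5 and 126 CPM in the glaucoma pools (interaction 2.62, SE 0.37, edgeR adjusted p = 0.105, DESeq2 adjusted p = 1.28e-06). In the UON both glaucoma pools thus lay below both naive pools for these genes, whereas in the MON both lay above (levels here are scaled over all 36 libraries). Esm1 (2.95, SE 0.66, edgeR adjusted p = 0.791, DESeq2 adjusted p = 0.0168), Itga7 (2.12, SE 0.46, edgeR adjusted p = 0.791, DESeq2 adjusted p = 0.0183) and Ldha (1.45, SE 0.34, edgeR adjusted p = 0.791, DESeq2 adjusted p = 0.0265) were likewise called higher in the MON response. Esm1 in the UON had 287 and 256 CPM in the naive pools and 322 and 582 CPM in the glaucoma pools. In the MON it had 3.72 and 1.88 CPM and then 60.8 and 19.9 CPM on the same scale. Its MON response was thus a ratio to a low naive level, and the UON was far higher in both groups. Gp1bb was called lower (-7.23, SE 1.61, edgeR adjusted p = 0.791, DESeq2 adjusted p = 0.00115). Mitosis genes gave no call in this interaction, with a median of -0.68, and Cdk1 in the UON had 2.56 and 1.29 CPM in the naive pools and 26.3 and 22.1 CPM in the glaucoma pools (interaction -0.12, SE 0.91, edgeR adjusted p = 1, DESeq2 adjusted p = 0.968). A difference between the segments in the cell division genes was not detectable with 2 pools per group.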

How the data were processed

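Bulk RNA-seq libraries of the myelinated optic nerve were analysed from the deposited gene table. The authors aligned reads with HISAT2 2.2.1 to GRCm38 and assembled and quantified them with StringTie 1.3.0 against the Gencode annotation, known and newly assembled transcripts included. The authors deposited estimated counts per gene, unnormalized, and FPKM values, which were used for 1 alternative with a pseudocount of 1. The deposited counts were already whole numbers. FPKM values just below 0 were set to 0.

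Groups came from the sample labels, with 1 female and 1 male pool each. Genes passed filterByExpr at a minimum count of 10 and a total of 15. The test was edgeR 4.0.16 (R 4.3.3), quasi-likelihood with TMM, group and sex as terms, over the 8 MON libraries of the glaucoma course, 12 MON libraries for crush and 16 libraries of MON and UON for the interaction. A call required a log2 fold change past 1 in size at a Benjamini-Hochberg adjusted p below 0.05. DESeq2 1.42.0 and limma 3.58.1 were alternatives. The 4 pools of the main comparison held 17.76 to 78.05 M counts, with counting error largest in the shallowest.

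Named genes were the 10 highest and 10 lowest changes among calls with a mean of at least 1 CPM and separate pools, up to 4 called genes per list (or the 2 most abundant), cell type markers, genes the study names, and the 3 highest and lowest per further contrast. As edgeR called none, the rule was applied to DESeq2 calls after their values were seen, and other genes named were also chosen after their values were seen. The members and the 52 lists were chosen with earlier results of these data known. Robust edgeR, and DESeq2 without single pools, on filtered genes and on 4 libraries, were added after seeing the data. Scripts were tested on simulated data. Promoter sequences are RefSeq, GRCm38.p6. Pools were labelled as separate samples, so p-values measure the spread between pools of 2 mice. A few named genes are not reported here.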

Additional observations from a re-analysis of the deposited data

How the results depend on the processing

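edgeR's 0 calls for 3 days of glaucoma against naive MON, and its 0 gene lists with a call, rested on the tool, the filter and the libraries fitted. edgeR called 0 genes with RLE or upper quartile factors, a filter of 1 CPM, the 4 libraries alone or no sex term, as did limma-voom and limma on FPKM. DESeq2 called 443 genes in 33 lists, 434 in 33 lists on the genes passing edgeR's filter and 193 in 27 lists with 4 libraries only. edgeR called 58 genes in 18 lists with no filter, 5 in 1 list with all 12 MON libraries, 2 in 1 list with 16 MON and UON libraries, and 2 with robust estimates. With all 12 MON libraries every call but Esm1 was a mitochondrial gene, and with 16 libraries every call but H2-Ab1. Robust estimates called only mitochondrial genes, and some of the 58 were mitochondrial as well. Counts of mitochondrial genes jumped between 0 and high values, so these calls were not read as levels. Leaving out 1 pool at a time gave 0 to 23 genes and 0 to 11 lists by edgeR, with 23 without the male glaucoma pool, 3 without the naive male, 1 without the naive female and 0 without the female glaucoma pool. DESeq2 gave 565 genes in 32 lists without the naive female pool, 428 in 31 without the naive male, 444 in 31 without the female glaucoma pool and 481 in 38 without the male. The edgeR calls without the naive male pool were all mitochondrial genes. The cause of these differences between settings was not tested.

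Against 2 weeks DESeq2 called 153 genes where edgeR called 0, and leaving out 1 pool gave 0 to 65 (65 without the 2-week female). Against 6 weeks these were 185, and 0 to 55 (55 without the 6-week male, 12 without the 6-week female, 8 without the 3-day male). Against crush they were 573, and 4 to 284 (284 without the crush female, 127 without the 3-day female, 7 without the 3-day male). For MON against UON they were 62, and 0 to 47 (47 without the 3-day UON male, 8 without the 3-day MON male).

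The sex of a pool, the replicate block of the design, does not pair the mice: deviations of same-sex pools from their group means correlated at -0.183 to 0.0472. Without the sex term (no replicate block) edgeR called 0 genes against naive, 2 weeks and 6 weeks, 1 against crush in place of 4, and 4 in the MON and UON interaction in place of 0.

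Of the genes named, 7 changed sign when 1 pool was left out, none of them called. Their edgeR log2 fold changes ran from -0.4858 to 1.129 for Serping1, -0.1619 to 1.367 for P2ry12, -1.467 to 0.5652 for Cx3cr1, -0.008403 to 0.3289 for Stat3, -0.02254 to 0.5198 for Gfap, -0.481 to 0.2815 for Mbp and -0.4925 to 0.9298 for Nefl. By DESeq2 the turned values were -0.4731 for Serping1, -0.1454 for P2ry12, 0.587 for Cx3cr1, -0.008881 for Gfap, 0.1305 and 0.2768 for Mbp, and -0.4732 and -0.2188 for Nefl. With 2 pools per group and 17.76 M counts in the naive male pool, low genes were measured least precisely there.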
